A study of Caenorhabditis elegans with 6 samples.

Results

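The dystrophin and sarcoglycan genes of Caenorhabditis elegans are the 9 genes dys-1, dyb-1, stn-1, stn-2, sgn-1, sgca-1, sgcb-1, dgn-1 and snf-6, chosen by their WormBase symbols, and all 9 were found among the 46932 genes of the deposited count table. RNA was sequenced from cells sorted by fluorescence out of young adult males, 5000 cells per library, and the labels name the cells as rectal valve and rectal gland. The 3 wild-type libraries came from animals with a csr-1a gene tagged with GFP, FLAG and an AID degron, and the 3 mutant libraries from animals in which that tagged csr-1a carried a deletion. Both groups carried him-8, which raises the share of males, and extrachromosomal arrays with wrmScarlet under the pnc-1 promoter and under that of pcs-1, and the parents in both cases had gone through heat stress as late L4 larvae. The replicates are described as biological, but nothing in the labels ties them to separate cultures, so p-values measure the spread between these libraries. The question, per the series' design text, was how the csr-1a mutation, in an Argonaute that binds small RNAs, alters the male tail.

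Dystrophin is a long rod-shaped protein that ties the actin cytoskeleton to a group of membrane proteins, the dystrophin-associated complex, and through them to the basement membrane outside the cell. Dystrobrevin and the syntrophins sit on its inner face, the sarcoglycans span the membrane beside it, and dystroglycan binds laminin outside. In the worm, loss of dys-1 makes the animals hyperactive and bend the head too far, and the complex holds ion channels and an acetylcholine transporter in place in body wall muscle.

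Total counts per library were between 17748698 and 47890863, of which ribosomal RNA took 74.4% to 78.4%. Levels are normalised counts scaled to a common library total (CPM), listed in the order of replicates 1, 2 and 3, group values are mean ± SD of 3 libraries, and log2 fold changes compare mutant with wild type and carry a standard error. Adjusted p-values come from the quasi-likelihood test of edgeR, adjusted by Benjamini-Hochberg over all 11968 genes tested, and "rose" is used for an adjusted p under 0.05. The gene csr-1 itself went from 220.2 ± 41.6 to 165 ± 17.1 CPM (log2 fold change -0.42 ± 0.17, adjusted p = 0.213), but counts per gene do not separate its isoforms, so this value is no check of the deletion. Markers of other cells were present, and those of body wall muscle and coelomocytes moved. Over all genes tested 4.04% rose and 1.55% fell, and in edgeR 2018 of 11968 had an unadjusted p under 0.05, in either direction. Of the tested neuron, intestine and germline markers, 0 of 13, 0 of 9 and 0 of 6 were called in edgeR, DESeq2 and limma-voom. Of 6 tested pharyngeal muscle markers edgeR called 0, at a median log2 fold change of 1.71. Of these, DESeq2 called 1 higher, limma-voom 0, and edgeR gave 5 higher at an unadjusted p under 0.05. Of the non-ribosomal counts, the 39 body wall muscle markers took 0.496% to 0.576% in wild type and 4.97% to 10.8% in the mutant, and 33 of 38 tested rose. The 6 coelomocyte markers took 1.55% to 1.6% in wild type and 0.700% to 1.08% in the mutant, with 5 of 6 lower, a count that was 2 when either wild-type replicate 1 or replicate 3 was left out and 0 when both libraries with the fewest genes detected, wild-type replicate 3 and mutant replicate 2, were left out. The 13 rectal and reporter markers took 0.0368% to 0.0453% in wild type and 0.0621% to 0.0801% in the mutant, and the rectal transcription factor genes egl-38 and ceh-6 were too low to be tested. Of the 10 tested, 2 rose, the reporter genes pnc-1 and pcs-1. Among those tested and not called were lin-48, egl-5, pax-3, sox-2, sem-4 and egl-27. Their mean levels ran from 0.409 (pax-3) to 33.4 CPM (egl-27) in wild type. In the mutant they ran from 0.581 (lin-48) to 52.7 CPM (egl-27). The coelomocyte gene cup-4 had a log2 fold change of -0.81 ± 0.16, and those of the reporter genes pnc-1 and pcs-1 were 1.68 ± 0.30 and 1.19 ± 0.27. These 3 were called, and each lost its call when certain libraries were left out (highest adjusted p = 0.0704 for cup-4 without wild-type replicate 1, 0.0738 for pnc-1 without both libraries of fewest genes and 0.0965 for pcs-1 without wild-type replicate 1).

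Of the 9 genes, 4 rose in the mutant and 0 fell. These were dys-1, stn-2, sgca-1 and dgn-1. DESeq2 called 6 of them higher and 0 lower, limma-voom 1 higher and 0 lower, and at an unadjusted p under 0.05 edgeR gave 8 higher and 0 lower. Over all genes tested 5.59% changed in edgeR, 4.04% rising and 1.55% falling. At an unadjusted p under 0.05 edgeR gave 2018 of the 11968 genes, in either direction. Over all genes DESeq2 called 700 higher and 339 lower, and limma-voom 351 higher and 221 lower. The median log2 fold change of the 9 genes was 2.31, against 0.01 for all genes tested. In 8 of the 9 genes, stn-1 being the exception, every mutant library lay above every wild-type library, which held for 12.6% of all genes tested, and the reverse held for 12.2%. All 9 passed the filter on low counts, but sgcb-1 did so only through the mutant libraries, in which it was higher, since only 1 of its wild-type libraries reached the filter's level. Among the other 8 genes the groups were apart in 7, and the median log2 fold change was 1.77. In bulk RNA of sorted cells, more cells of a type and more RNA per cell cannot be told apart, here and in every result that follows.

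**Figure D1:**
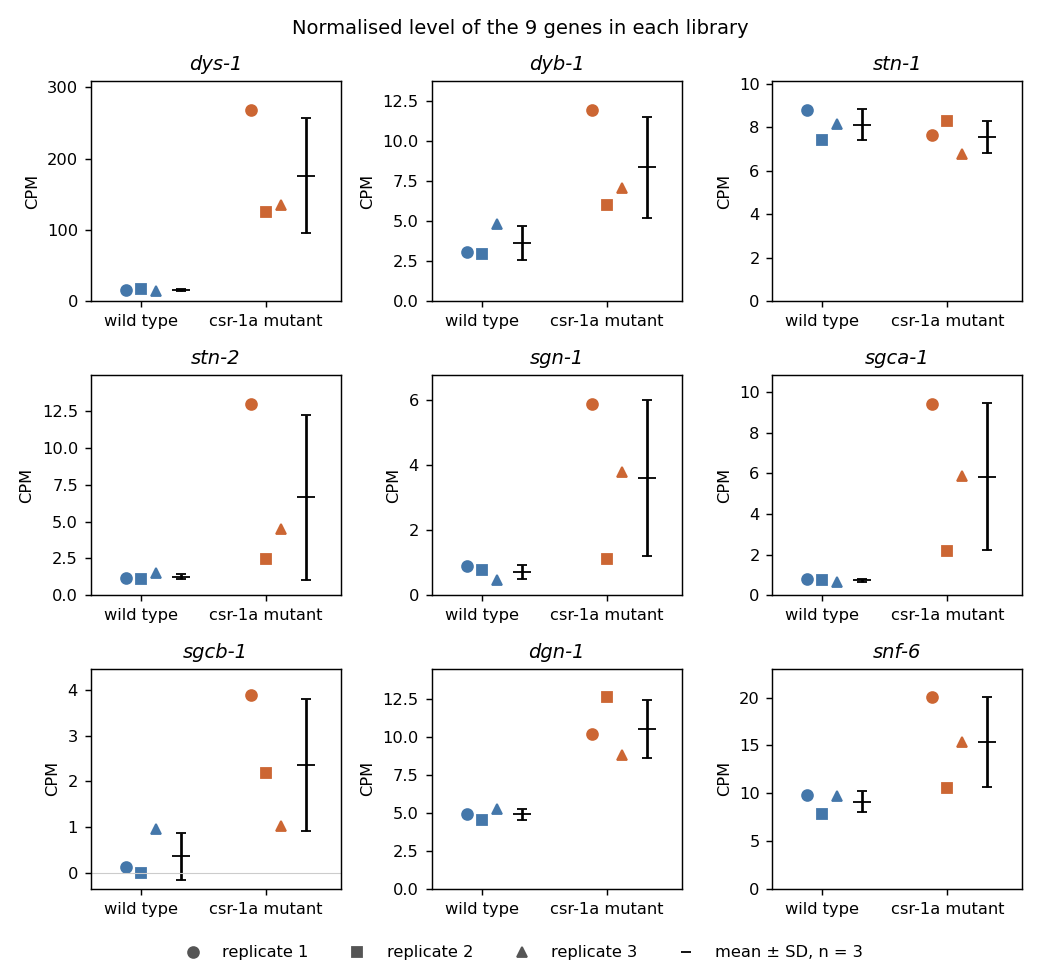
Normalised level in CPM of each of the 9 genes (vertical axes, 1 scale per gene) in the 3 wild-type and 3 csr-1a mutant libraries, with the mean and SD of each group as a black bar. The mutant libraries of dys-1 sit between 125 and 269 CPM, far above the wild-type libraries between 14.5 and 17.3 CPM, while the groups of stn-1 overlap.

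The dystrophin gene dys-1 (WBGene00001131, WBcel235 chromosome I, 11526918 to 11557851, minus strand) is the largest of the 9, with 11508 bases of merged exons. Its wild-type levels were 15.9, 17.3 and 14.5 CPM. Its mutant levels were 269, 125 and 135 CPM. The wild-type libraries lay close together, and the mutant libraries were all far above them, replicate 1 highest. The gene rose 11.1-fold (log2 fold change 3.47 ± 0.29, adjusted p = 9.35e-05). It was called in each of the 17 other fits, at log2 fold changes between 3.04 and 3.73. The 3 other genes inside its span, F32B4.9, F32B4.10 and F32B4.11, are noncoding genes on the opposite strand that share no exon with it and held at most 28 counts in a library.

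Dystrobrevin, encoded by dyb-1 (WBGene00001115, chromosome I, 1483083 to 1490498, plus strand), binds dystrophin directly. Wild-type levels of 3.04, 2.96 and 4.84 CPM stood against mutant levels of 11.9, 6.01 and 7.09 CPM. The groups did not overlap, but wild-type replicate 3 and mutant replicate 2 lay close to each other. With a log2 fold change of 1.22 ± 0.37, dyb-1 missed the threshold (adjusted p = 0.0875). It did pass in 4 of the 17 other fits. The exons of dyb-1 share 68 bases with Y92H12A.5 on the opposite strand, which held 446 to 1310 counts per library against 58 to 569 for dyb-1. No source used here states whether reads were counted by strand, so those in that stretch cannot be assigned.

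The syntrophins are adaptor proteins that hold channels and signalling proteins to the complex, and stn-1 and stn-2 encode them in the worm. The gene stn-1 (WBGene00006062, chromosome I, 9501266 to 9505173, plus strand) read 8.80, 7.40 and 8.14 CPM in wild type, against 7.64, 8.27 and 6.78 CPM in the mutant. Its groups overlapped, and the log2 fold change was -0.10 ± 0.25 (adjusted p = 0.914). The sign of this value turned with library totals alone and without wild-type replicate 1 or mutant replicate 3, at log2 fold changes of 0.0086, 0.0041 and 0.0099. Its exons share 219 of 1560 bases with F30A10.9 on the opposite strand, which held 162 to 223 counts per library, so part of the stn-1 count is uncertain.

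The gene stn-2 (WBGene00017866, chromosome X, 7676511 to 7680619, minus strand) had wild-type levels of 1.19, 1.12 and 1.48 CPM. Its mutant levels were 13.03, 2.45 and 4.47 CPM. The mutant libraries were all higher but spread widely, replicate 1 standing well above the others. The gene rose (log2 fold change 2.40 ± 0.59, adjusted p = 0.0374). The call held without mutant replicate 2 (adjusted p = 0.00942). Without mutant replicate 1 the log2 fold change was 1.47 (adjusted p = 0.257), and the call also ended without wild-type replicate 1, 2 or 3 or mutant replicate 3 (adjusted p = 0.102, 0.100, 0.114 and 0.0579) and with limma-voom (adjusted p = 0.207). The difference between stn-1 and stn-2 in their change was not tested.

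The sarcoglycans are single-pass membrane proteins that form a subcomplex beside dystroglycan. The gene sgca-1 (WBGene00019227, chromosome X, 6787256 to 6789548, minus strand), of the alpha type, had wild-type levels of 0.782, 0.765 and 0.649 CPM. Its mutant levels were 9.44, 2.18 and 5.89 CPM. The lowest mutant library, replicate 2, was still above every wild-type library. It rose (log2 fold change 2.99 ± 0.56, adjusted p = 0.00918). The call ended without mutant replicate 1 (log2 fold change 2.46, adjusted p = 0.0654) and with limma-voom (adjusted p = 0.193). Its exons share 50 bases with bgal-2 on the opposite strand, which held 0 to 35 counts per library.

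The gene sgn-1 (WBGene00004790, chromosome II, 8782008 to 8783670, minus strand), of the gamma and delta type, had wild-type levels of 0.905, 0.765 and 0.472 CPM and mutant levels of 5.88, 1.11 and 3.77 CPM. Mutant replicate 2 was barely above wild-type replicate 1. At 2.31 ± 0.66 on the log2 scale sgn-1 missed the threshold (adjusted p = 0.0700), but passed it without mutant replicate 2 (2.80, adjusted p = 0.0109). Of its exons, 13 bases overlap let-19 on the opposite strand, a far more abundant gene with 1523 to 5275 counts per library.

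The gene sgcb-1 (WBGene00019277, chromosome II, 326300 to 328224, plus strand), of the beta type, was the lowest of the 9. Its levels were 0.123, 0 and 0.944 CPM in wild type, against 3.88, 2.18 and 1.02 CPM in the mutant. These values rest on 3, 0 and 16 reads and on 185, 55 and 23 reads, and the count of 0 in wild-type replicate 2 allows a level of up to 0.153 CPM (3 counts, counting error only). The groups did not overlap, but wild-type replicate 3 lay next to mutant replicate 3. The log2 fold change was 2.77 ± 1.12 (adjusted p = 0.225, not past the threshold). Across the 3 sarcoglycan genes mutant replicate 1 was the highest library each time, mutant replicate 2 was the lowest of the mutant libraries for sgca-1 and sgn-1, and mutant replicate 3 the lowest for sgcb-1. The muscle marker shares of mutant replicates 2 and 3 were 4.97% and 5.37%. In these libraries sgca-1 stood at 2.18 and 5.89 CPM, sgn-1 at 1.11 and 3.77 CPM and, in the opposite order, sgcb-1 at 2.18 and 1.02 CPM. These levels rest on 55 and 133, 28 and 85, and 55 and 23 reads. Whether the sarcoglycan genes followed the muscle markers was not tested.

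Dystroglycan is the laminin receptor of the complex. In the worm its gene dgn-1 (WBGene00000961, chromosome X, 10920515 to 10928998, minus strand) is known from epithelia and neurons rather than from muscle. Wild-type levels were 4.90, 4.54 and 5.25 CPM, and mutant levels were 10.2, 12.6 and 8.77 CPM. The groups were well apart, and the highest mutant library was replicate 2, not replicate 1 as for 7 of the other 8 genes. It rose 2.15-fold (log2 fold change 1.10 ± 0.27, adjusted p = 0.0377). The call ended without any of the 3 wild-type libraries or mutant replicates 1 or 2 (adjusted p = 0.147, 0.143, 0.0817, 0.0807 and 0.0721), with limma-voom (adjusted p = 0.0533) and without both libraries of fewest genes detected (adjusted p = 0.0848). The log2 fold change stayed between 1.01 and 1.25 in all 17 other fits. Of the 13 neuron markers edgeR, DESeq2 and limma-voom called 0, at an unadjusted p under 0.05 edgeR gave 1 higher and 4 lower, and the list took 0.196% to 0.272% of the non-ribosomal counts in wild type and 0.178% to 0.220% in the mutant. Of the hypodermis markers, 1 of 6 tested rose, the collagen gene rol-6, and the list took 0.00875% to 0.0123% of the non-ribosomal counts in wild type and 0.0256% to 0.0385% in the mutant. Most counts of this list in the mutant were those of rol-6, which held 257, 379 and 349 counts in wild type and 3866, 1588 and 1021 in the mutant. Of this list col-10 had 0 counts in every library. The part of either cell type in the dgn-1 result was not tested. Its paralogue dgn-2 had 0 counts in every library, which allows at most 0.0630 to 0.177 CPM, and dgn-3 had 1 count in all.

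The transporter gene snf-6 (WBGene00004905, chromosome III, 1519962 to 1532827, minus strand) encodes a carrier for acetylcholine in muscle that binds the complex through syntrophin. Its wild-type levels were 9.83, 7.86 and 9.68 CPM and its mutant levels 20.02, 10.6 and 15.3 CPM. The groups did not overlap, though mutant replicate 2 lay close above wild-type replicate 1. The log2 fold change was 0.75 ± 0.27, not past the threshold (adjusted p = 0.164), but past it without mutant replicate 2 (1.02, adjusted p = 0.0444).

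Levels of different genes were compared per length, as CPM per kilobase of merged exons. In wild type the syntrophin gene stn-1 was the most abundant at 5.20 ± 0.451 CPM per kilobase, followed by snf-6 at 3.70 ± 0.445, and these levels did not overlap. Next came dgn-1 at 1.89 ± 0.137, dyb-1 at 1.77 ± 0.519 and dys-1 at 1.38 ± 0.126 CPM per kilobase, in which each neighbouring pair overlapped. The lowest levels per kilobase were those of stn-2 (0.750 ± 0.111), sgn-1 (0.599 ± 0.185), sgca-1 (0.507 ± 0.05) and sgcb-1 (0.365 ± 0.526), and neighbours among them overlapped. The wild-type libraries thus held more RNA of stn-1 and snf-6 per length than RNA of dys-1, part of the stn-1 count being uncertain. The other syntrophin gene, stn-2, lay below dys-1 in each of them.

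In the mutant the order changed at its head. The level of dys-1 was 15.3 ± 6.97 CPM per kilobase, above that of snf-6 at 6.21 ± 1.91 in every library. The level of stn-1 was 4.85 ± 0.479, and the other 6 genes lay between 2.42 (sgcb-1) and 4.08 (dyb-1) CPM per kilobase with overlapping libraries. Summed over the 9 genes, the level per kilobase was 16.2 ± 1.54 in wild type and 47.9 ± 18.7 in the mutant. Of this sum dys-1 made up 8.35%, 10.4% and 7.19% in wild type, against 33.7%, 31.5% and 29.3% in the mutant. The share of stn-1 went the other way, from 34.1%, 32.8% and 29.9% to 7.06%, 15.4% and 10.8%. The share of dys-1 was alike in the 3 mutant libraries although their summed levels, 69.3, 34.4 and 40.1 CPM per kilobase, were not.

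**Figure D2:**
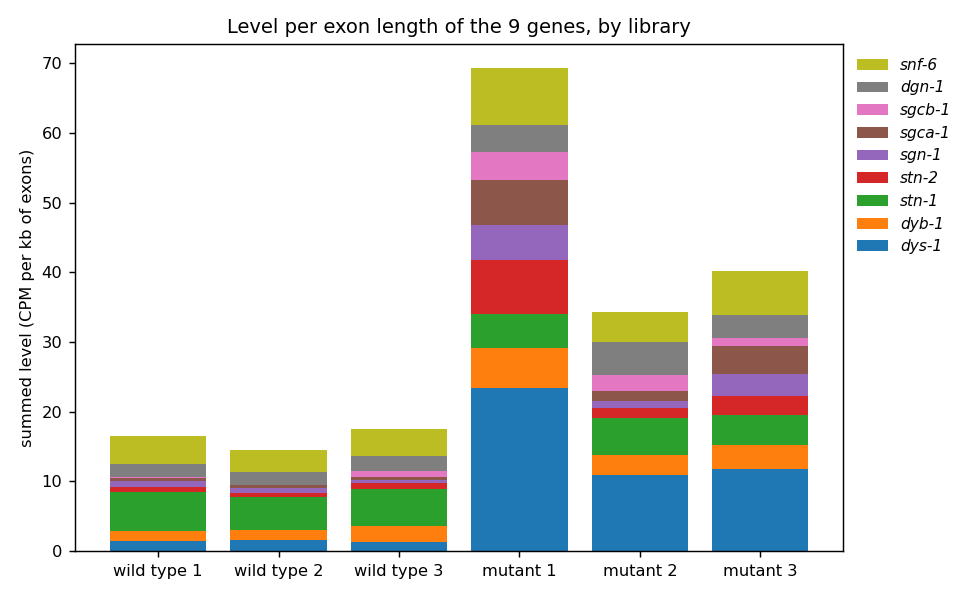
Level of the 9 genes in CPM per kilobase of merged exons (vertical axis), stacked for each of the 6 libraries, with 1 colour per gene. The band of dys-1, at the foot of each bar, makes up 29.3% to 33.7% of the mutant bars against 7.19% to 10.4% of the wild-type bars, while the band of stn-1 has about the same height in all 6.

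Because muscle markers differed between the groups, each of the 9 genes was also counted per 1000 counts of the 39 body wall muscle markers, a list that holds none of the 9. This is a description with no test, and a gene that changed less than the markers has to fall on this scale. The myosin gene unc-54, the most abundant of the muscle markers named here, went from 249 ± 28.8 to 4058 ± 2117 CPM (log2 fold change 4.03 ± 0.32), and myo-3, another muscle myosin, from 46.6 ± 11.8 to 1072 ± 598 CPM (4.52 ± 0.37). The muscle transcription factor gene hlh-1 had a log2 fold change of 2.94 ± 0.67, a call that ended without wild-type replicates 1 or 2 or mutant replicate 1 (adjusted p = 0.0984, 0.0861 and 0.155) and with limma-voom (adjusted p = 0.129).

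On this scale dys-1 had values of 10.9, 14.8 and 10.2 in wild type, against 10.3, 11.2 and 11.6 in the mutant. The groups overlapped, with all 6 libraries between 10.2 and 14.8. Whether the proportion of dys-1 to the muscle markers changed was not tested. With unc-54 alone as the reference, dys-1 stood at 64.9 ± 13.6 in wild type and 44.3 ± 2.61 in the mutant per 1000 unc-54 counts, and its groups no longer overlapped. The sarcoglycan genes sgca-1 (0.550 ± 0.0985 and 0.354 ± 0.154) and sgcb-1 (0.250 ± 0.363 and 0.144 ± 0.0546) also overlapped between the groups per 1000 muscle marker counts. The other 6 genes were lower in every mutant library. The smallest of these differences were those of stn-2, from 0.940 ± 0.112 to 0.368 ± 0.140, and sgn-1, from 0.536 ± 0.177 to 0.216 ± 0.111. The median log2 fold change was 3.71 for the muscle markers and 0.01 for all genes tested, so such a fall is not particular to these 6 genes. The share of all genes that fall on this scale was not computed.

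For stn-1, snf-6, dgn-1 and dyb-1 the fall on this scale was larger. The count of stn-1 per 1000 muscle marker counts was 6.04 ± 0.288 in wild type and 0.539 ± 0.228 in the mutant. That of snf-6 was 6.77 ± 0.0582 and 1.01 ± 0.275, that of dgn-1 3.65 ± 0.262 and 0.757 ± 0.371, and that of dyb-1 2.68 ± 0.674 and 0.535 ± 0.0740. The part of muscle RNA in the change of each gene was not tested.

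**Figure D3:**
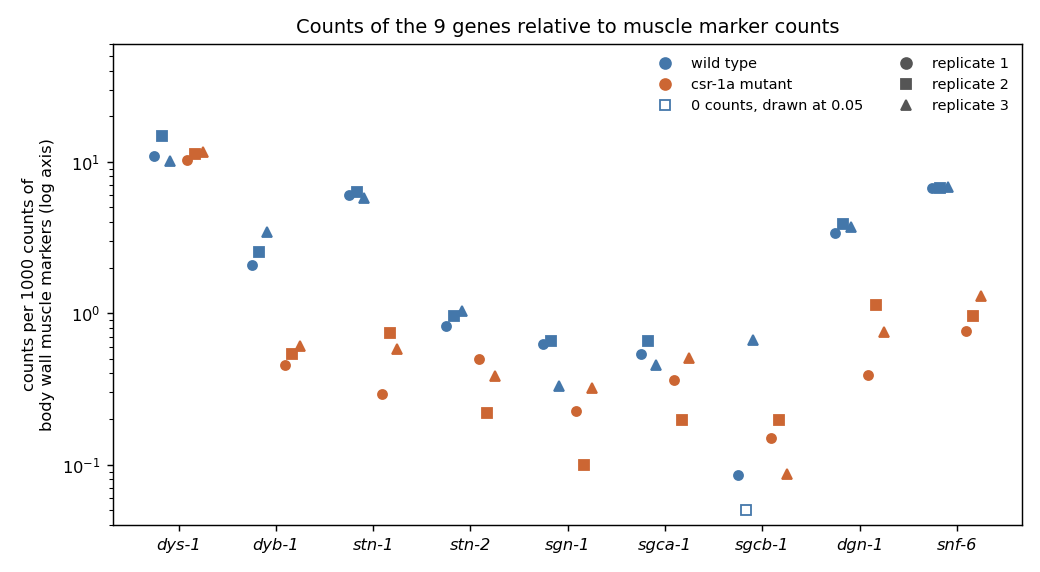
Counts of each of the 9 genes per 1000 counts of body wall muscle markers (vertical log axis) in each library, with wild type in blue, the csr-1a mutant in orange and a count of 0 as an open square. The libraries of dys-1 all lie between 10.2 and 14.8, whereas those of stn-1 lie between 5.75 and 6.32 in wild type and between 0.293 and 0.744 in the mutant.

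Among 6 known intracellular partners of the complex, 3 rose and 0 fell in edgeR, the counts of DESeq2 and limma-voom being the same, and at an unadjusted p under 0.05 edgeR gave 5 higher and 0 lower. Over all genes tested 4.04% rose and 1.55% fell in edgeR, and 2018 of 11968 had an unadjusted p under 0.05. The gene dyc-1, whose product binds zyxin and works with dystrophin in muscle, had wild-type levels of 3.99, 2.60 and 5.96 CPM and mutant levels of 52.05, 15.9 and 27.1 CPM (log2 fold change 2.93 ± 0.44, adjusted p = 0.0022). The zyxin gene zyx-1, which encodes an adaptor at dense bodies, went from 10.7 ± 1.03 to 70.7 ± 34.04 CPM (2.72 ± 0.31, adjusted p = 4.1e-04). Next, slo-1 encodes the large-conductance potassium channel that the complex holds near calcium channels, and had wild-type levels of 4.73, 5.56 and 4.84 CPM and mutant levels of 21.97, 14.7 and 16.97 CPM (1.83 ± 0.25, adjusted p = 0.00133). For all 3 the groups were apart and mutant replicate 1 was highest. Of the genes that place this channel, neither islo-1 (log2 fold change 1.26 ± 0.42, adjusted p = 0.126) nor the alpha-catulin gene ctn-1 (0.76 ± 0.30, adjusted p = 0.215) passed the threshold, and their groups overlapped. The channel subunit gene bkip-1 was counted below 1 CPM on average in both groups.

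Of 7 matrix proteins that dystroglycan and related receptors meet in basement membranes, 4 rose and 0 fell in edgeR, against 4.04% and 1.55% of all genes tested. The counts were the same in DESeq2, in limma-voom and in edgeR at an unadjusted p under 0.05. The 4 that rose were the laminin genes epi-1, an alpha chain, lam-1, the beta chain, and lam-2, the gamma chain, and the perlecan gene unc-52. Their log2 fold changes were 1.70 ± 0.21, 2.36 ± 0.33, 1.96 ± 0.31 and 2.52 ± 0.33, with adjusted p of 6.02e-04, 0.00149, 0.00335 and 0.00102. The most abundant, epi-1, went from 60.2 ± 8.31 to 196 ± 54.7 CPM. The other laminin alpha chain gene, lam-3, had overlapping groups (log2 fold change -0.43 ± 0.38, adjusted p = 0.693). The nidogen gene nid-1 (0.76 ± 0.40, adjusted p = 0.392) and the agrin gene agr-1 (-0.50 ± 0.69, adjusted p = 0.820) did not pass either.

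**Figure D4:**
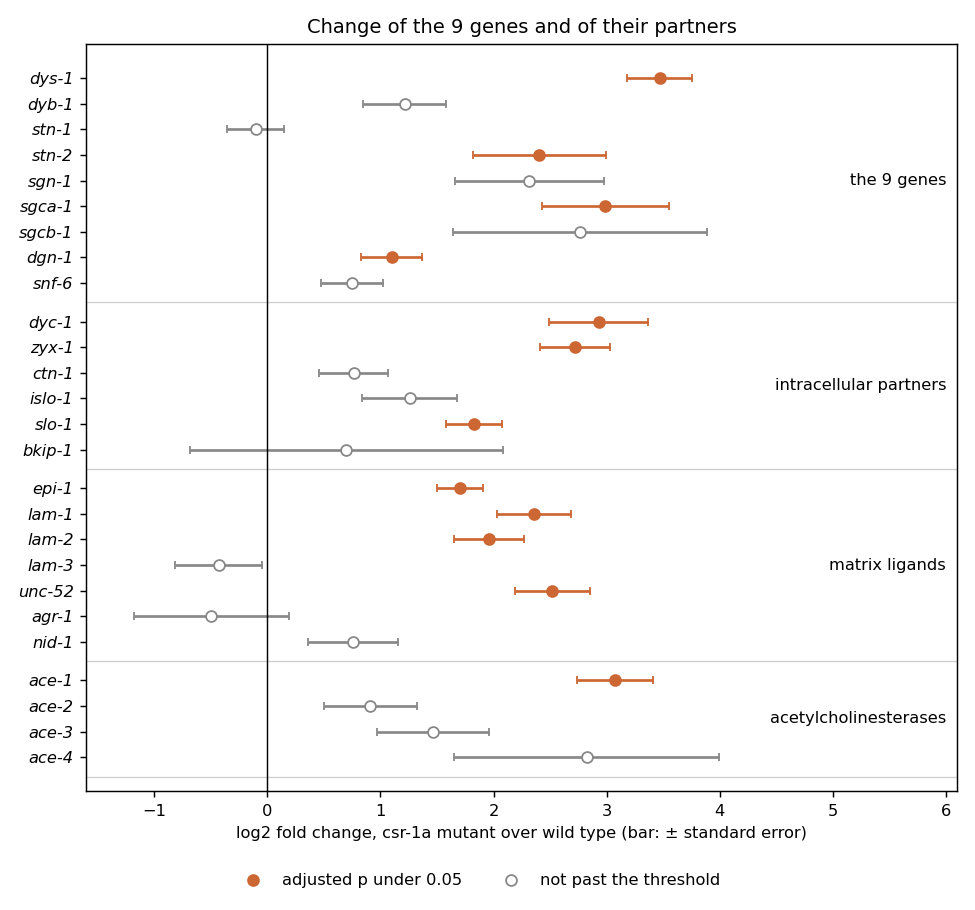
Log2 fold change of mutant over wild type (horizontal axis) with its standard error for the 9 genes, 6 intracellular partners, 7 matrix proteins and 4 acetylcholinesterases, filled orange where the adjusted p was under 0.05. The filled points run from 1.10 (dgn-1) to 3.47 (dys-1), and stn-1, lam-3 and agr-1 lie on the negative side without passing the test.

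SNF-6 clears acetylcholine, as do the acetylcholinesterases. Of 4 acetylcholinesterase genes 1 rose, against 4.04% of all genes tested. The gene that rose was ace-1, the form known from muscle. Wild-type levels of 1.65, 2.25 and 1.53 CPM stood against mutant levels of 20.9, 11.9 and 12.9 CPM (log2 fold change 3.07 ± 0.33, adjusted p = 3.12e-04), and the groups were far apart. The other 3, ace-2, ace-3 and ace-4, had log2 fold changes of 0.91 ± 0.41, 1.47 ± 0.49 and 2.83 ± 1.17 (adjusted p = 0.293, 0.129 and 0.237). Of 8 tested relatives of snf-6 in the SNF transporter family 1 rose, beside the same 4.04% of all genes tested. It was the GABA transporter gene snf-11 (3.07 ± 0.78, adjusted p = 0.0457). Its levels were 2.18, 2.35 and 0 CPM in wild type, against 20.5, 10.9 and 7.40 CPM in the mutant. Its call ended in most fits without a library (adjusted p = 0.0735 and 0.0629 leaving out wild-type replicates 1 and 2, and 0.179, 0.0757 and 0.0772 leaving out mutant replicates 1, 2 and 3), with DESeq2, limma-voom and no low-count filter (adjusted p = 0.235, 0.161 and 0.474), and narrowly without ribosomal RNA genes and with scaling that left out muscle markers (adjusted p = 0.0519 and 0.0513). The betaine transporter gene snf-3 stood at 12.98 ± 2.88 CPM in wild type and at 6.51 ± 0.867 in the mutant. Its log2 fold change of -0.99 ± 0.26 missed the threshold (adjusted p = 0.0546) but passed it with DESeq2 and with no low-count filter (adjusted p = 0.0263 and 0.0363).

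Likeness to dys-1 was measured for 4938 genes that averaged 5 CPM or more. Those outside the 9 whose levels followed dys-1 most closely over the 6 libraries were upb-1, idhg-2, Y69A2AR.31, C46G7.2 and dhp-2. Likeness was the root mean square difference of log2 levels, each centred on its own mean, and was 0.116, 0.160, 0.178, 0.191 and 0.199 for these 5. All but upb-1 stood below 5 CPM in wild type and reached that mean only through the mutant libraries. Known products are a beta-ureidopropionase (upb-1), an isocitrate dehydrogenase subunit (idhg-2) and a dihydropyrimidinase (dhp-2), while the other two carry no gene name. The closest, upb-1, went from 8.57 to 89.8 CPM (log2 fold change 3.39 ± 0.34, adjusted p = 2.01e-04). On the same measure unc-54 stood at 0.333 and myo-3 at 0.594. Of the other members, sgca-1, stn-2, sgn-1 and sgcb-1, all below a mean of 5 CPM and so outside that comparison, stood at 0.678, 0.881, 0.980 and 0.991, and dyb-1, dgn-1, snf-6 and stn-1 at 1.17, 1.24, 1.35 and 1.76. The measure describes 6 libraries that fall into 2 groups, and so it mainly orders genes by their change between the groups.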

How the data were processed

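The tools listed in the submitters' processing notes, with no role or order, are STAR, fastp 0.20.1, DESeq2, featureCounts and Subread 2.0.0. Build, annotation and strand setting of the counting: not given in these sources. The authors deposited raw read counts per gene for the 6 libraries, and columns were matched to samples by title. Symbols, exons and coordinates (1-based) came by WormBase identifier from WBcel235 (Ensembl release 115), which may not be the authors' annotation. Genes were filtered with edgeR's filterByExpr (minimum count 10, minimum total 15), TMM-scaled and tested on group alone with glmQLFit (robust=TRUE) and glmQLFTest (edgeR 4.0.16, limma 3.58.1, R 4.3.3). On simulated data the procedure recovered 18 of 100 changes of 2-fold and 80 of 100 of 4-fold, and called 5 of 10933 unchanged genes. Changes were simulated only in genes averaging above 2 CPM, so these rates do not cover sgcb-1, which averaged 1.36 CPM. The members and lists were chosen with earlier results of these data known. List genes not found numbered 2. Named genes were all members, the partner lists, 6 marker genes and the 5 most like dys-1. Others, such as rol-6, egl-38, ceh-6, further rectal markers and overlapping or flanking genes, were named after their values were seen or as neighbours. Levels per length used merged exons. Alternatives, among them DESeq2 1.42.0 and limma-voom, were other scalings, filters and tools, a replicate block and libraries left out. Of the low libraries, wild-type replicate 3 and mutant replicate 2 had the fewest genes detected.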

Additional observations from a re-analysis of the deposited data

How the results depend on the processing

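The call of dys-1 held in all 17 other fits, and those of the other members depended on the setting. The number of members that were called, 4 with the main settings, was 7 without a low-count filter, 1 with limma-voom, 2 with the replicate block and 1 to 5 without a single library. Without a low-count filter dyb-1, sgn-1 and sgcb-1 were called (log2 fold changes 1.26, 2.35 and 2.84), as were dyb-1 with the stricter filter (1.33), dyb-1 and sgn-1 with DESeq2 (1.22 and 2.33) and the same pair without both libraries of fewest genes (1.71 and 2.57). Not called were stn-2, sgca-1 and dgn-1 with limma-voom (2.29, 2.86 and 1.09), stn-2 and dgn-1 with the replicate block (2.07 and 1.09) and dgn-1 without both libraries of fewest genes (1.05). The value of stn-1 was positive with library totals alone (0.0086, adjusted p = 0.995) and without wild-type replicate 1 or mutant replicate 3 (0.0041 and 0.0099), and that of agr-1 without both libraries of fewest genes (0.72) and without wild-type replicate 3 (0.31; over single libraries left out it ran from -0.92 to 0.31). Over single libraries left out, log2 fold changes ranged from 3.04 to 3.73 for dys-1, 0.88 to 1.47 for dyb-1, -0.17 to 0.0099 for stn-1, 1.47 to 2.87 for stn-2, 1.77 to 2.80 for sgn-1, 2.46 to 3.44 for sgca-1, 2.18 to 5.06 for sgcb-1, 1.01 to 1.25 for dgn-1 and 0.52 to 1.02 for snf-6. Over all genes, 669 were called (484 higher, 185 lower). This was 1048 (727 and 321) without a low-count filter and 1039 (339 lower) with DESeq2. Lower genes numbered 89 with library totals alone, where 86.6% of calls were higher against 72.3%, and 56 without both libraries of fewest genes. Without a single library the calls numbered 416 to 697, 327 to 546 of them higher and 39 to 151 lower, with 8 to 9 calls among partners and 36 to 43 among markers. Relative to unc-54 alone, the summed counts of the 9 genes had a log2 ratio of mutant to wild type of -1.59, against -1.16 relative to all muscle markers. The cause of these differences was not tested. Same-numbered libraries deviated from their group means with correlations of 0.0166, -0.0293 and -0.114, so the numbers do not pair the libraries. The sarcoglycan genes rested on 0 to 22 reads per wild-type library.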

Other observations

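The nearest tested gene on each side of the 9 genes, leaving out genes that overlap them, was examined after their values were seen, with no test. Of these 18 neighbours, at distances of 121 to 24257 bases, 2 rose and 0 fell, against 4.04% of all genes that rose, and their median log2 fold change was 0.11. The neighbour of dys-1 at 121 bases, phm-2, went from 11.2 ± 1.79 to 12.6 ± 3.12 CPM without passing the test (log2 fold change 0.17 ± 0.26, adjusted p = 0.838), beside a change of 3.47 for dys-1. The neighbour of stn-2 at 206 bases, F27D9.2, did not pass either (0.86 ± 0.69, adjusted p = 0.642). Next to sgca-1, the protease gene asp-3 stood at 44.2 ± 4.77 and 43.3 ± 8.10 CPM. The neighbours that rose were acs-16 beside dyb-1 (3.08 ± 0.53, adjusted p = 0.00541) and T21B6.3 beside dgn-1. T21B6.3 lies 16162 bases from dgn-1 on chromosome X and went from 11.2 ± 2.92 to 413 ± 242 CPM (5.20 ± 0.40, adjusted p = 9.35e-05), against a change of 1.10 for dgn-1.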
